A study of Danio rerio with 6 samples.

Results

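Membrane trafficking genes encode the proteins that move cargo between the compartments of a cell: the Rab and Arf GTPases, the Sec proteins of the endoplasmic reticulum (ER), the vesicle coats, the sorting nexins, the Vps proteins and the exocyst. They were picked by gene symbol alone, namely those that start with rab, arf, arl or sec and a digit, with vps, snx, clt or exoc, with copa, copb, cope, copg or copz, or with ap1, ap2 or ap3 and a letter. The melanosome Rab genes rab32a and rab32b have such symbols but were left out by name, as an exception set in the rule. It found 141 of the 8793 genes that the array names by 1 symbol, with 169 probe sets. Where a gene has several probe sets, the brightest (highest mean log2 over 6 arrays) stands for it. The symbols also bring in cltrn, which encodes the amino acid transporter partner collectrin, and arl6ip4, which encodes a splicing-related protein, neither of them a coat or sorting protein.

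A vesicle leaves its donor membrane under a protein coat, which also gathers the cargo. COPII coats bud from the ER, COPI coats return material from the Golgi, and clathrin with its adaptor complexes works at the Golgi, endosomes and plasma membrane. Rab and Arf proteins are switches that bind GTP to mark each membrane and recruit coats, motors and tethers, and sorting nexins with retromer pull cargo back out of endosomes. In pigment cells of mammals and fish, the same machinery delivers melanin enzymes to melanosomes, and in the retinal pigment epithelium (RPE) it also carries engulfed photoreceptor membrane to lysosomes.

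The zebrafish were embryos of the AB wild-type strain, dissected 52 hours after fertilization, and RNA came from 3 pools of retina alone and 3 pools of retina with the RPE still attached. Each pool held 10 dissected tissues, the labels call the pools biological replicates, and 33 ng of total RNA from each was amplified in 2 cycles for an Affymetrix zebrafish array. The study set these groups against each other to infer which genes the RPE expresses more or less than the retina. The second group holds both tissues, and fewer cells of a type and less RNA per cell cannot be told apart in such pools.

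The deposited linear intensities had array medians of 68.7 to 69.6 in retina and 73.2 to 74.5 with RPE. Upper quartiles were 284.6 to 292.6 in retina and 264.6 to 270.9 with RPE, so the groups differed in both. Correlations across probe sets were 0.994 to 0.997 within a group and 0.980 to 0.988 between groups. A gene was called at an adjusted p under 0.05 in limma over all 15502 probe sets, which 19.4% of all genes reached as higher and 17.0% as lower, and 26.5% and 6.98% of the dimmer genes (mean intensity under the median gene's 115). All 9 measured RPE and melanin markers rose with RPE attached, their summed intensity going from between 620.6 and 697.4 to between 2991 and 4094. Markers of other cells were called higher in 6 of 8 for xanthophores and neural crest (sum 407.0 to 467.1 in retina, 1161 to 1351 with RPE), in 13 of 16 for mesenchyme and cartilage (727.2 to 776.7, then 1229 to 1743), in 7 of 16 for skeletal muscle (917.5 to 1020, then 1294 to 1479) and in 7 of 12 for leukocytes (407.1 to 500.5, then 609.3 to 696.1). None of these 4 lists had a gene called lower. The lists share genes: mitfa, called higher, is also among the RPE and melanin markers. The gene csf1ra, not called, is in both the xanthophore and the leukocyte list. Inner retinal neuron markers had 8 of 19 lower and 0 higher (sum 22870 to 28990, then 18830 to 21160), and photoreceptor markers 4 of 16 lower and 3 higher (7551 to 8108, then 5157 to 5899). The photoreceptor sum rests mostly on its brightest genes, among them crx and nr2e3, both called lower. The median log2 change of that list was 0.17. No marker read 0. The part of these other cells in the trafficking results was not tested.

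The trafficking genes did not differ between the groups in 1 common direction. Of 141 genes, 18 rose, 27 fell and 96 were not called. Over all 8793 genes, 19.4% rose and 17.0% fell, 36.4% in all. The trafficking genes gave 12.8% and 19.1%, 31.9% in all, so the share called lay a little under the background. Their median log2 change was -0.02, against 0.04 over all genes, and single genes ran from -1.17 (rab18a) to 0.73 (snx9b). The groups did not overlap in 44.0% of the trafficking genes and in 50.7% of all genes. Most called genes described below were picked among those whose groups do not overlap. For them, groups that stand apart follow from that choice and add no support.

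**Figure D1:**
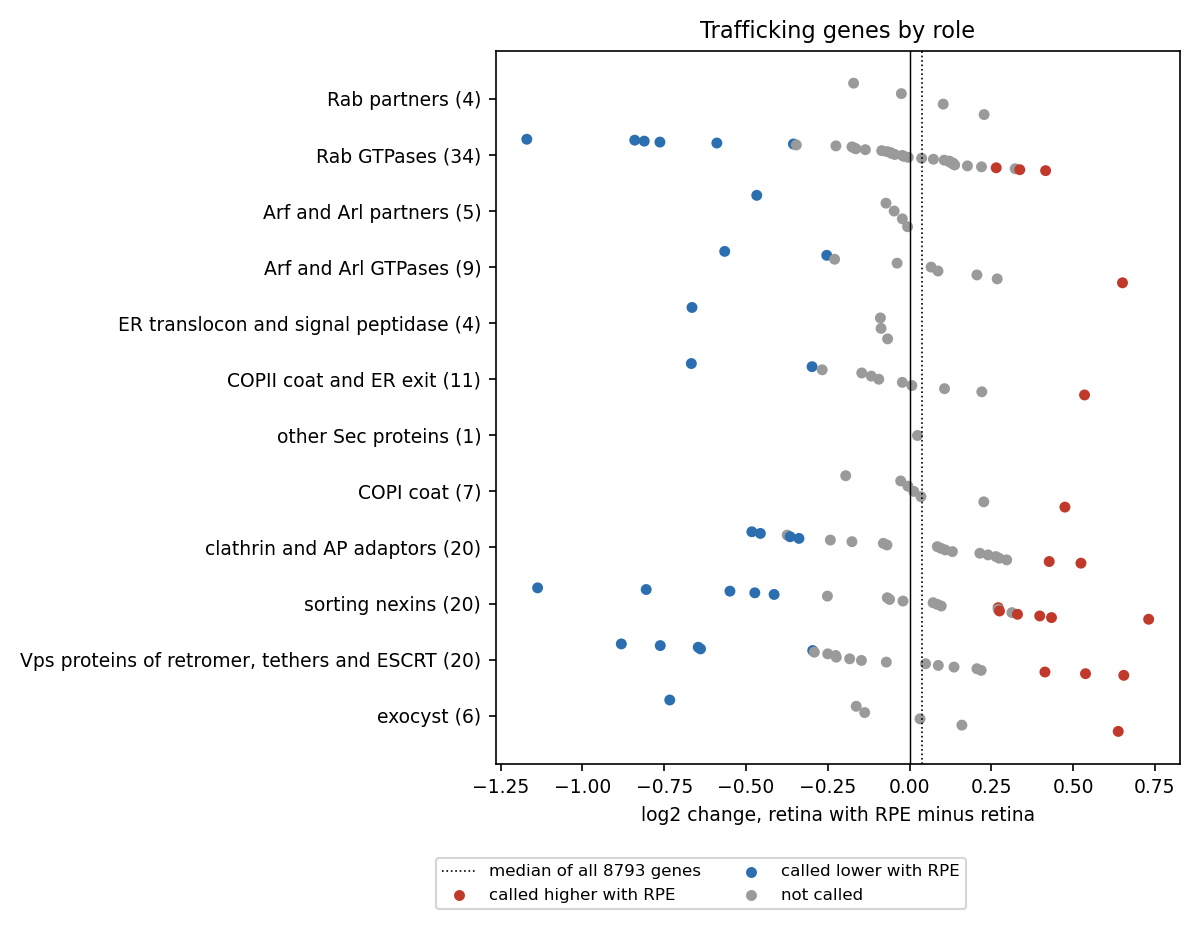
Log2 change of each of the 141 trafficking genes (x axis, retina with RPE minus retina, brightest probe set), in rows by role with the number of genes in brackets. Red and blue points are called higher and lower at an adjusted p under 0.05, grey ones are not called, and the dotted line is the median of all genes. Sorting nexins and Vps proteins have called genes on both sides, and the lowest value is that of the Rab gene rab18a at -1.17.

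Changes were modest. Of the called genes, 4 that rose (arl9, snx9b, vps8 and exoc7) and 14 that fell moved by at least 1.5-fold, 2.84% and 9.93% of the genes, against 3.89% and 6.12% over all genes. The balance of calls differed with intensity. Against the shares given above for the dimmer genes, 12.3% of all genes at or above the median intensity of 115 rose and 27.0% fell. Trafficking genes were mostly bright, 100 of 141 at or above that level, where 11 rose and 24 fell. Among the 41 dimmer ones 7 rose and 3 fell. Among bright probe sets, falls outnumbered rises in the trafficking genes as in all genes. Falls of at least 1.5-fold were called in 13 of the 100 bright trafficking genes and in 439 of all 4397 bright genes. Rises of that size were called in 2 and 131 of them. Affymetrix marks each probe set A or S in its identifier. Among all genes, probe sets marked A fell in 20.7% and those marked S in 13.2%, and the trafficking genes gave 20.9% of 67 and 17.6% of 74.

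**Figure D2:**
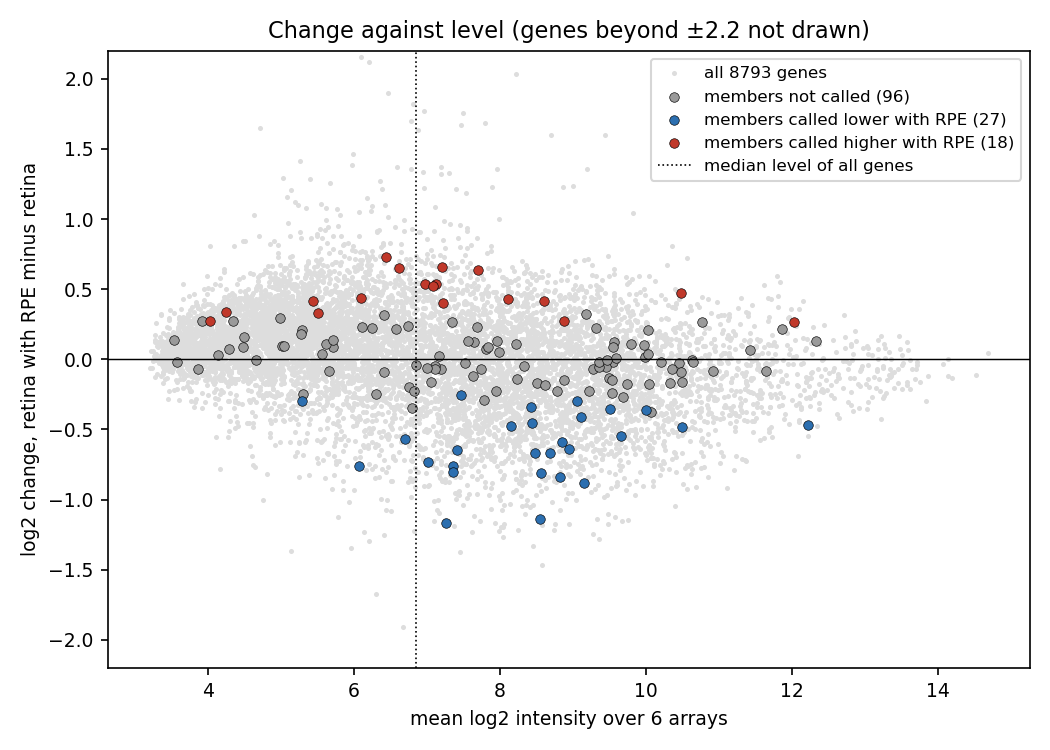
Log2 change (y axis, retina with RPE minus retina) against mean log2 intensity over 6 arrays (x axis) for all 8793 genes in light grey and the 141 trafficking genes as outlined points, coloured by call. The dotted line marks the median level of all genes. To its right lie 24 of the 27 trafficking genes called lower.

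Rab GTPases were the largest group, with 34 genes. Of these, 3 rose and 6 fell (8.82% and 17.6%), against 19.4% and 17.0% of all genes, and the median log2 change was -0.03. The lowest value belonged to rab18a, whose product works at the ER and lipid droplets and whose human counterpart is mutated in an inherited eye and brain disorder. Its intensity was 259.5, 234.1 and 202.8 in retina and 115.6, 105.7 and 88.33 with RPE. The level with RPE was 2.25-fold lower (log2 change -1.17 ± 0.125, SE; adjusted p = 0.000262), with the groups apart as the rule for naming it required. Its paralog rab18b behaved otherwise but was dim, at 15.33, 17.02 and 18.89 in retina and 21.34, 20.38 and 22.85 with RPE. It rose by 0.34 ± 0.100 (adjusted p = 0.0269), and the 95% intervals of the pair, -1.45 to -0.89 for rab18a and 0.11 to 0.56 for rab18b, do not meet, although the difference itself was not tested. The call of rab18b was lost after cyclic loess (0.0981), quantile normalization (0.0973), a pseudocount of 16 (0.057), and without retina pool 1 (0.0814), or pool 1 (0.0667) or 3 (0.0984) with RPE.

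A fall was also seen for rab40c, a Rab that carries a ubiquitin ligase adaptor domain, at 578.3, 627.3 and 621.8 in retina and 356.9, 319.5 and 344.7 with RPE, a log2 change of -0.84 ± 0.086 (adjusted p = 0.000218). The dimmer rab40c probe set, marked S, changed by -0.05 and was not called (0.696). The ER-to-Golgi Rab gene rab1bb read 615.7, 438.5 and 471.9 in retina and 298.0, 288.1 and 274.8 with RPE, a 1.75-fold lower level (log2 change -0.81 ± 0.124, adjusted p = 0.00142). For both genes the groups stood apart, as the rule for naming them required. The other genes of the Rab1 group were not called, rab1ab at -0.16 and rab1ba at -0.004.

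Further genes that fell were rab15, an endosomal Rab known from neural tissue, at a log2 change of -0.76 ± 0.116 (adjusted p = 0.00141), and rab28, mutated in a human cone-rod dystrophy, at -0.59 ± 0.136 (adjusted p = 0.0091). Intensities of rab28 were 715.7, 486.9 and 526.5 in retina and 387.9, 355.2 and 390.9 with RPE, so that the retina arrays spread more than those with RPE but none overlapped. The gene rab2a, of ER and Golgi transport, rose 1.2-fold, from 3804 ± 55.26 to 4573 ± 145.4 (SD, n = 3; adjusted p = 0.0284). That was a small change in tight values, and the call was lost after centring on ribosomal protein genes (0.0763) and without retina pool 1 (0.0535) or 3 (0.0618), or pool 1 (0.0822), 2 (0.0826) or 3 (0.051) with RPE. The endosomal gene rab22a rose from 37.79 ± 1.614 to 50.54 ± 4.977 (log2 change 0.42 ± 0.095, adjusted p = 0.00895), and lost its call after cyclic loess (0.0705) and quantile normalization (0.0701).

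The landmark Rabs of the endocytic route mostly showed no call. Those of the early endosome were rab5ab at -0.02 (-0.22 to 0.18, the 95% interval), rab5b at 0.12 and rab5c at -0.18 (-0.39 to 0.04). The late endosome and lysosome Rab gene rab7a lay at -0.06 (-0.27 to 0.15). Recycling Rabs were at 0.13 for rab11a, -0.23 for rab11ba, -0.05 for rab11bb, -0.07 for rab11al and 0.07 for rab25a, and the Golgi gene rab6a was at -0.17. None of these was called, though rab11ba was called lower without retina pool 3 (0.0322). These intervals leave room for modest changes in either direction. The exception was rab5aa, which read 808.7, 794.1 and 877.2 in retina and 640.1, 661.3 and 636.5 with RPE on its brightest probe set, a fall of 0.36 on the log2 scale (adjusted p = 0.00985). Its second probe set, also marked S, rose by 0.34 (adjusted p = 0.0472), so the direction of rab5aa depends on the probe set, and the first call was lost after centring on ribosomal protein genes (0.0725), cyclic loess (0.0808) and quantile normalization (0.0854), and with the median over both probe sets (log2 change -0.01, 0.954). The gene rab11bb lay flat on its brightest probe set, marked A, while another, marked S, rose by 0.46 (adjusted p = 0.0436).

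The other Rab GTPases, rab3c, rab4a, rab4b, rab10, rab12, rab13, rab14, rab20, rab21, rab35a, rab35b, rab36 and rab41, were not called and lay between -0.35 (rab13) and 0.32 (rab21). Of 4 Rab partners none was called. They include rab3gap1 at 0.23 and rab3gap2 at -0.03, the subunits of the exchange factor that activates Rab18 in human cells, rab3ip at -0.17 and rab5if at 0.10. The melanosome gene rab32a, outside the group by rule and also among the RPE and melanin markers, shows how far a Rab gene could move in these pools. It read 62.31, 61.16 and 60.91 in retina and 182.7, 249.2 and 174.2 with RPE, a 3.24-fold rise, and its dim paralog rab32b rose 1.31-fold.

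**Figure D3:**
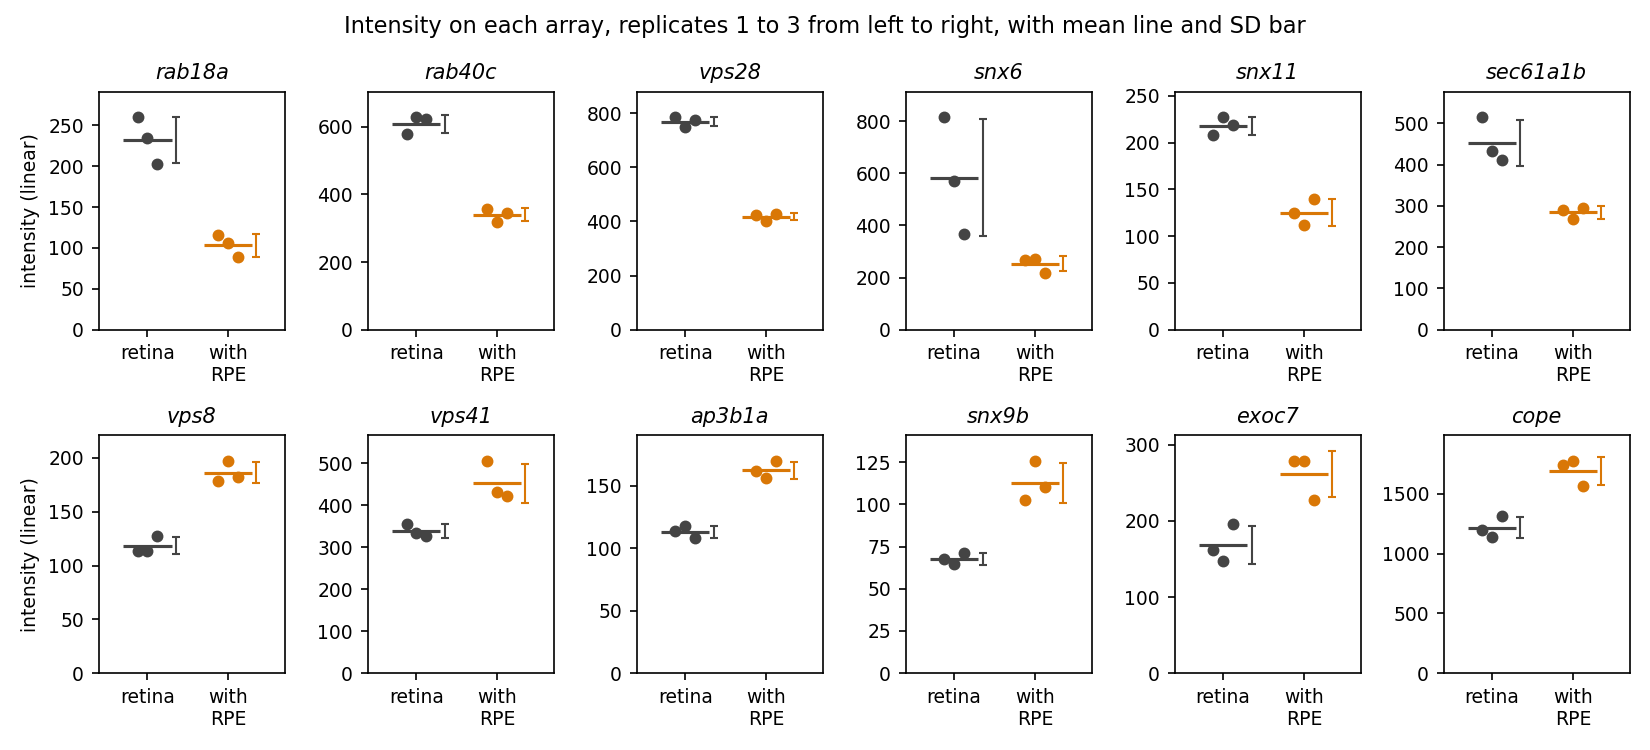
Linear intensity (y axis, from 0) of 12 trafficking genes on each array, with retina in grey and retina with RPE in orange. Points are replicates 1 to 3, lines are means and bars are ± SD (n = 3). In the upper row every point with RPE lies under every retina point, and in the lower row above. The genes were picked among those whose groups do not overlap.

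Arf and Arl GTPases, which recruit coats and carry cargo to cilia and lysosomes, numbered 9, with 1 higher and 2 lower (11.1% and 22.2%). These shares stand beside 19.4% and 17.0% of all genes. The gene arl9, a little studied Arl, read 67.1, 77.89 and 93.58 in retina and 117.6, 131.6 and 122.5 with RPE and rose 1.57-fold (log2 change 0.65 ± 0.121, adjusted p = 0.00349). Its dimmer probe set, marked S, changed by 0.17 and was not called (0.179). The cilium gene arl6, which recruits the BBSome coat, fell 1.19-fold, from 193.7 ± 11.08 to 162.5 ± 7.017 (SD, n = 3; adjusted p = 0.0453). That call was slight: it was lost with replicate number as a block (0.0599), after cyclic loess (0.0875), quantile normalization (0.139) and centring on ribosomal protein genes (0.269), with the filter on dim probe sets (0.0628) and eBayes with trend and robust (0.0812), and without retina pool 1 (0.125) or 3 (0.0662), or pool 1 (0.136), 2 (0.0972) or 3 (0.0763) with RPE. The gene arl11 was called lower at -0.57 ± 0.173 (adjusted p = 0.0304) although the groups overlapped. Its call was lost with a pseudocount of 16 (0.0686), on its dimmer probe set (0.173) and without retina pool 1 (0.0534) or 2 (0.0712), or pool 1 (0.102) or 3 (0.122) with RPE.

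None of the remaining Arf and Arl genes was called. These were arf5 at 0.07, the lysosome positioning gene arl8bb at 0.21, the cilium genes arl3l1 at 0.27 and arl3l2 at 0.09, arl2 at -0.23 and arl4cb at -0.04. Among 5 Arl partners, arl6ip1, which shapes ER tubules, fell. It read 5086.2, 5537.3 and 6252.8 in retina and 4083.7, 4030.7 and 4052.1 with RPE, a log2 change of -0.47 ± 0.095 (adjusted p = 0.00525), and the arrays with RPE varied by less than those of retina. The others, arl2bp, arl6ip4, arl6ip5a and arl6ip5b, lay between -0.07 and -0.01, although a dimmer arl6ip4 probe set, marked S, rose by 0.64 (adjusted p = 0.00105).

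At the ER, proteins enter through the Sec61 channel. The gene sec61a1b, a form of its pore subunit, read 514.1, 432.9 and 410.0 in retina and 289.7, 267.1 and 295.5 with RPE, a 1.59-fold fall (log2 change -0.67 ± 0.104, adjusted p = 0.00153). Its paralog sec61a1a was not called, at -0.07 with a 95% interval of -0.30 to 0.16, against -0.90 to -0.43 for sec61a1b. The small channel subunit gene sec61g, at -0.09, and the signal peptidase gene sec11a, at -0.09, were not called either.

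Of 11 genes of the COPII coat and ER exit, 1 rose and 2 fell (9.09% and 18.2%), against 19.4% and 17.0% of all genes. The gene sec23ip, whose product binds the coat protein Sec23 at ER exit sites, read 92.09, 112.0 and 110.6 in retina and 152.6, 134.9 and 168.7 with RPE and rose 1.45-fold (log2 change 0.54 ± 0.114, adjusted p = 0.00633). Both genes that fell encode inner coat subunits, sec23b at -0.30 ± 0.083 (adjusted p = 0.0209) and the cargo binding subunit gene sec24c at -0.67 ± 0.201 (adjusted p = 0.0288). The sec24c intensities were 664.3, 534.8 and 396.7 in retina and 408.5, 338.1 and 255.1 with RPE, so the groups overlapped at their edges. The call of sec23b was lost after centring on ribosomal protein genes (0.146), cyclic loess (0.171) and quantile normalization (0.188), and without retina pool 3 (0.056), or pool 1 (0.0545) or 2 (0.075) with RPE. That of sec24c was lost after cyclic loess (0.062), quantile normalization (0.0593) and a pseudocount of 16 (0.0686), and without retina pool 1 (0.0894), or pool 2 (0.0775) or 3 (0.116) with RPE. The other inner coat genes sec23a (-0.27), sec24a (0.11) and sec24b (-0.15), the outer coat genes sec13 (0.22) and sec31a (-0.09) and sec22a, sec22ba and sec22bb, of the Sec22 family of ER and Golgi traffic, were not called. The lipid transfer gene sec14l1, the last of the Sec symbols, lay at 0.02.

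Of 7 COPI coat genes, 1 (cope) rose and none fell, 14.3% called against 36.4% of all genes. The median log2 change was 0.01, with a range of -0.20 (copz2) to 0.48 (cope). The gene cope encodes the epsilon subunit. It read 1196.0, 1140.1 and 1311.6 in retina and 1736.3, 1773.8 and 1560.7 with RPE (log2 change 0.48 ± 0.094, adjusted p = 0.00449). The subunit genes copa (-0.03), copb1 (0.01), copb2 (0.23), copg2 (0.04), copz1 (-0.01) and copz2 (-0.20) were not called on their brightest probe sets. For copa the 95% interval was -0.29 to 0.24 and for copb1 -0.22 to 0.25. Dimmer probe sets of copb2 and copg2 were called, higher by 0.40 (adjusted p = 0.0140) and lower at -0.43 (adjusted p = 0.00673). A further dimmer probe set of each pointed the other way without a call, at -0.22 for copb2 (0.097) and 0.33 for copg2 (0.0553).

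Clathrin and the adaptor complexes AP-1, AP-2 and AP-3, with 20 genes including cltrn, had 2 genes that rose and 4 that fell (10.0% and 20%). Over all genes, 19.4% rose and 17.0% fell. The clathrin heavy chain gene cltca fell on both of its probe sets, by 0.48 and 0.80 on the log2 scale, with the brighter at 1768.0, 1903.6 and 1470.4 in retina and 1170.8, 1268.1 and 1223.1 with RPE (adjusted p = 0.00772). That call was lost after quantile normalization (0.0576). Neither the other heavy chain gene cltcb, at -0.18, nor the light chain gene clta, at 0.22, was called.

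Within AP-1, which sorts cargo between the Golgi and endosomes, subunits of 1 complex moved apart. The large subunit gene ap1g1 read 246.8, 228.4 and 241.5 in retina and 352.1, 298.3 and 314.9 with RPE and rose 1.34-fold (log2 change 0.43 ± 0.092, adjusted p = 0.00678), whereas the small subunit genes ap1s1 and ap1s2 fell by 0.46 and 0.36 on the log2 scale (adjusted p = 0.00425 and 0.0135). Intensities of ap1s1 were 441.2, 390.0 and 391.8 in retina and 307.6, 299.2 and 283.7 with RPE. The ap1s2 call was lost after centring on ribosomal protein genes (0.0753), cyclic loess (0.0965) and quantile normalization (0.161), and without pool 2 (0.0576) with RPE. The subunit genes ap1b1 (-0.37), ap1g2 (0.24), ap1m2 (0.10) and ap1s3b (0.09) were not called. AP-2, the adaptor of endocytosis at the plasma membrane, had no called gene among ap2a1 (-0.07), ap2b1 (-0.24), ap2m1a (0.13) and ap2m1b (-0.08).

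AP-3 sends cargo to lysosomes and melanosomes, and loss of its large beta subunit in humans causes a form of Hermansky-Pudlak syndrome with pale skin and eyes. The zebrafish gene ap3b1a read 113.6, 117.5 and 108.0 in retina and 161.5, 156.2 and 169.9 with RPE, a 1.44-fold rise (log2 change 0.52 ± 0.084, adjusted p = 0.00171), and its dimmer probe set rose by 0.50 (adjusted p = 0.00558). This was 1 of 2 trafficking genes with several probe sets whose probe sets were all called in the same direction, the other being cltca. Of the medium subunit genes, ap3m2, the form known from neurons in mammals, fell by 0.34 on the log2 scale (adjusted p = 0.0279), and the general form ap3m1 was not called, at 0.30 (0.01 to 0.59). The difference between the pair was not tested. The ap3m2 call was lost after centring on ribosomal protein genes (0.116), cyclic loess (0.116) and quantile normalization (0.145), and without retina pool 1 (0.0811) or 3 (0.0765), or pool 1 (0.0848), 2 (0.0782) or 3 (0.0612) with RPE. The small subunit genes ap3s1, at 0.26, and ap3s2, at 0.11, were not called, though ap3s1 was called higher after quantile normalization (0.0345) and without retina pool 1 (0.0329), and ap3m1 without pool 1 with RPE (0.0480). The collectrin gene cltrn, dim at 12.48, 14.7 and 14.45 in retina and 16.13, 14.78 and 19.63 with RPE, was not called.

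**Figure D4:**
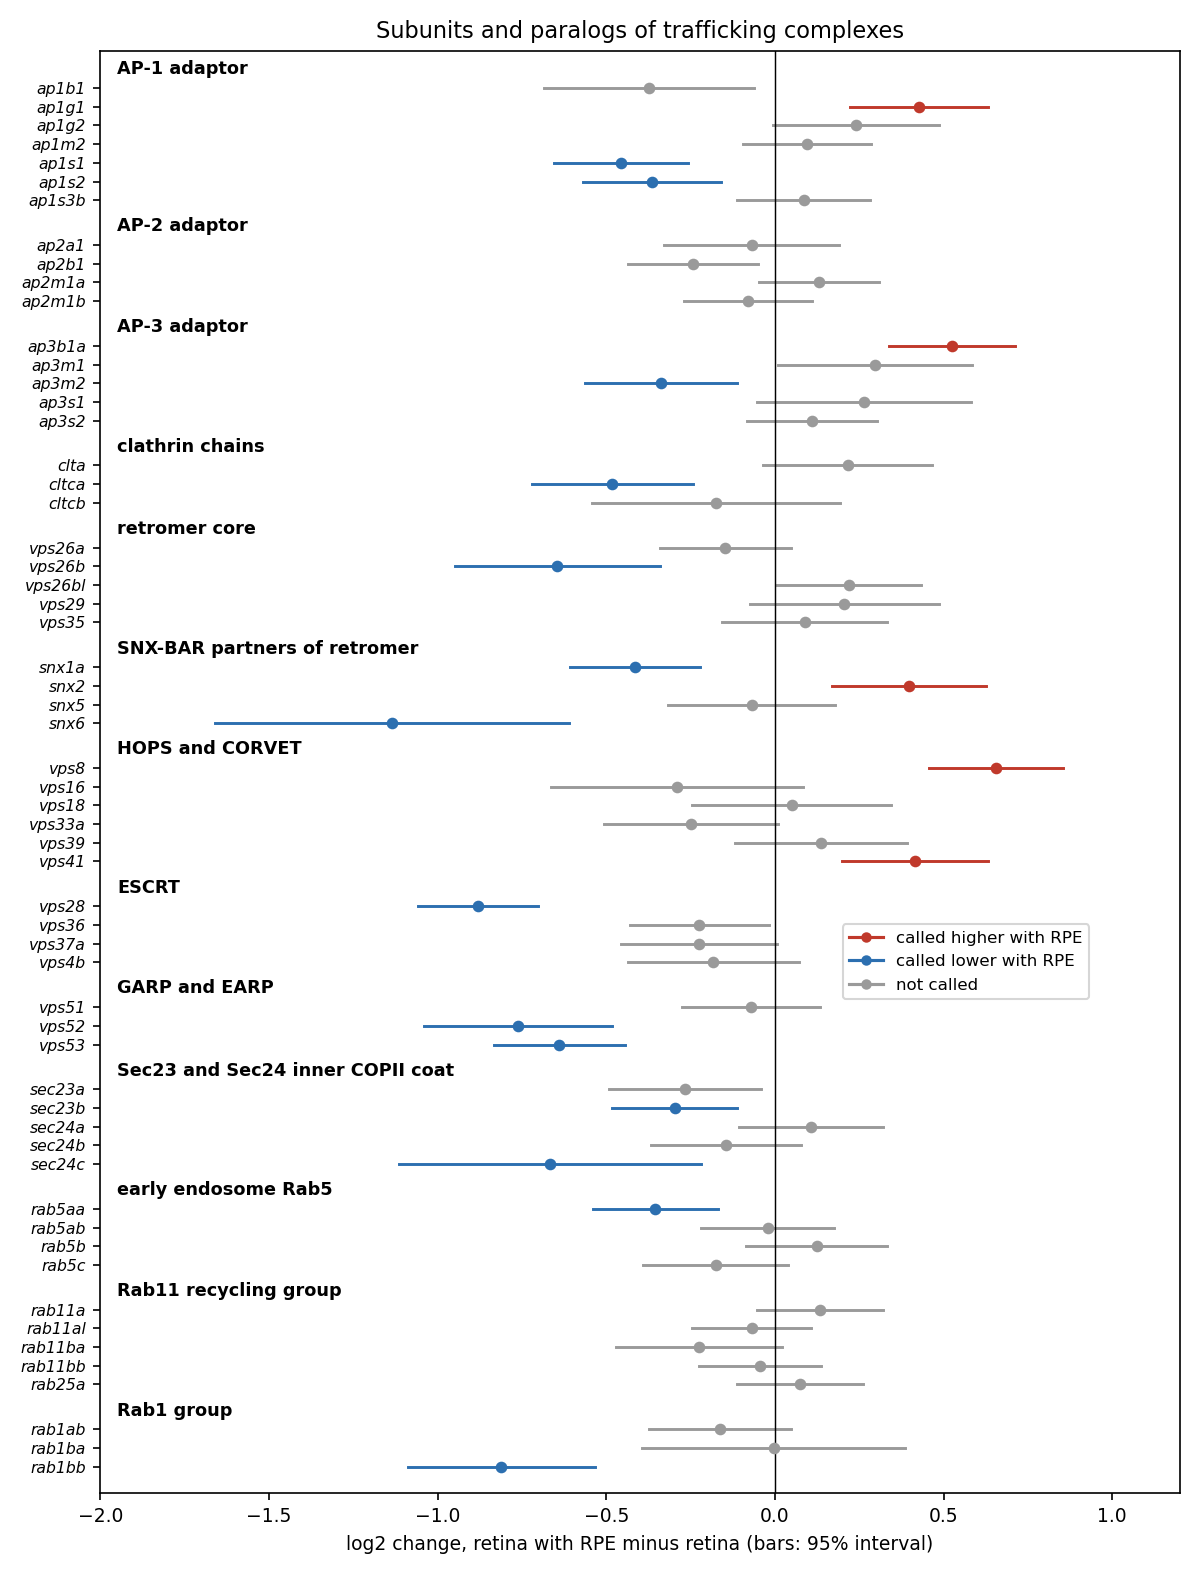
Log2 change (x axis, retina with RPE minus retina) with its 95% limma interval for the measured subunits and paralogs of 13 complexes or Rab groups, coloured by call. Called genes of opposite direction stand in AP-1, AP-3 and the SNX-BAR partners of retromer. In HOPS and CORVET the called genes, vps8 and vps41, both lie to the right of 0.

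Sorting nexins bind endosomal membranes through a PX domain and were the group with the most calls. Of 20, 6 rose and 5 fell (30.0% and 25%, 55.0% in all), against 19.4%, 17.0% and 36.4% over all genes. Several of these calls were lost in alternatives or on other probe sets, as given below. The largest rise was that of snx9b, which works with dynamin and actin in endocytosis: it read 67.49, 64.37 and 71.4 in retina and 102.4, 125.7 and 110.1 with RPE, a 1.66-fold change (log2 change 0.73 ± 0.099, adjusted p = 0.000799). A further rise was that of snx15, from 59.44 ± 7.128 to 80 ± 4.443 (SD, n = 3; log2 change 0.43 ± 0.103, adjusted p = 0.0106). The groups did not overlap for either gene, as the rule for naming them required.

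The SNX-BAR partners of retromer form the tubules along which its cargo leaves endosomes, and their called genes moved in opposite directions. The gene snx6 read 814.2, 570.1 and 365.4 in retina and 267.3, 272.7 and 218.9 with RPE, a 2.2-fold fall (log2 change -1.14 ± 0.235, adjusted p = 0.00566). Its retina arrays differed by more than 2-fold among themselves, the widest spread of the genes described here. That all of them lay above the arrays with RPE was required by the rule for naming the gene. The gene snx1a fell by 0.41 on the log2 scale (adjusted p = 0.00601), whereas its close relative snx2 rose by 0.40 ± 0.102 (adjusted p = 0.0146). The 95% intervals were -0.61 to -0.22 for snx1a and 0.17 to 0.63 for snx2. The snx2 call was lost on its dimmer probe set, marked S, at 0.16 (0.267), and without pool 1 (0.0567) with RPE, and snx5, at -0.07, was not called.

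Among the other sorting nexins, snx11 fell 1.75-fold, with 207.9, 226.8 and 219.0 in retina and 124.2, 111.4 and 140.0 with RPE (log2 change -0.81 ± 0.101, adjusted p = 0.000534). The gene snx12, a relative of the endosomal recycling gene snx3, fell by 0.55 on the log2 scale on its brightest probe set (adjusted p = 0.00214), while its other probe sets, at -0.03 and 0.08, were not called, nor was the median over them (0.596). For snx3 itself the value was -0.02 (-0.20 to 0.16). Smaller calls were those of snx16, lower at -0.47 (adjusted p = 0.0419), and snx7 (0.33, 0.0201), snx8a (0.28, 0.0371) and snx14 (0.27, 0.0479), all higher. Of these, snx7 and snx8a were dim, with means going from 40.71 to 51.26 and from 14.87 to 17.98. Each of these 4 lost its call in at least 2 alternatives and without several single arrays: snx16 without retina pool 1 (0.0865), or pool 1 (0.122), 2 (0.0752) or 3 (0.118) with RPE, snx7 without retina pool 1 (0.0534), or pool 1 (0.0761) or 3 (0.0623) with RPE, snx8a without retina pool 1 (0.108) or 3 (0.0617), or pool 1 (0.0626), 2 (0.0899) or 3 (0.118) with RPE, and snx14 without retina pool 2 (0.0598) or 3 (0.135), or pool 1 (0.126), 2 (0.1) or 3 (0.106) with RPE. The remaining nexin genes, snx4, snx10a, snx17, snx18a, snx19b, snx27b and snx30, lay between -0.25 (snx30) and 0.31 (snx19b) with no call.

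Vps proteins, named for vacuolar sorting in yeast, had 3 of 20 genes higher and 5 lower (15.0% and 25%), with a median of -0.17. The shares over all genes were 19.4% and 17.0%. HOPS and CORVET are tethers that fuse endosomes with each other and with lysosomes, and zebrafish lacking vps18, which belongs to both, lose pigment. The CORVET gene vps8 read 113.7, 113.9 and 127.3 in retina and 178.9, 197.1 and 182.5 with RPE, a 1.57-fold rise (log2 change 0.66 ± 0.089, adjusted p = 0.000818). The HOPS gene vps41 read 356.4, 332.8 and 326.2 in retina and 505.4, 430.5 and 420.9 with RPE, a 1.33-fold rise (log2 change 0.41 ± 0.097, adjusted p = 0.00975). In both genes the arrays with RPE lay above all retina arrays. Genes were picked by this separation, so it adds no support.

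No gene of the shared core was called. The values were -0.29 for vps16, 0.05 for vps18 and -0.25 for vps33a, with 0.14 for the HOPS gene vps39, which was not called either. Their 95% intervals were -0.67 to 0.08, -0.25 to 0.34, -0.51 to 0.01 and -0.12 to 0.39, and those of vps18 and vps39 overlap that of vps41, 0.20 to 0.63. Differences between these genes were not tested. Without retina pool 2, vps16 and vps33a were called lower (0.00884 and 0.0143), and vps33a also after quantile normalization (0.0477). In all, 2 of 6 measured genes of these tethers rose and 0 fell. That was 33.3% called, against 36.4% of all genes (19.4% higher).

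The strongest fall among Vps genes by its test was that of vps28, a subunit of ESCRT-I, which sorts ubiquitinated receptors into endosomal vesicles. It read 784.1, 749.2 and 773.3 in retina and 422.8, 402.9 and 427.2 with RPE, a 1.84-fold difference with very little spread in either group (log2 change -0.88 ± 0.080, adjusted p = 0.000129). The other ESCRT genes vps37a (-0.23), vps36 (-0.22) and the ATPase gene vps4b (-0.18) were not called. In the GARP and EARP tethers, which receive endosomal carriers, vps53 fell 1.56-fold (log2 change -0.64 ± 0.087, adjusted p = 0.000826) and vps51 lay at -0.07. The vps52 probe set that represents the gene fell by 0.76 on the log2 scale (adjusted p = 0.00191), but the other, marked S and only slightly dimmer at 164.1, 125.9 and 148.8 in retina, changed by 0.20 and was not called.

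Retromer, the core that recovers cargo from endosomes, had 1 called gene of 5, 20% against 36.4% of all genes. The gene vps26b read 230.7, 188.5 and 225.7 in retina and 111.2, 154.7 and 148.9 with RPE and fell 1.56-fold (log2 change -0.65 ± 0.136, adjusted p = 0.00616). Its paralogs vps26a (-0.15) and vps26bl (0.22) and the partner genes vps29 (0.21) and vps35 (0.09) were not called. The 95% interval was -0.95 to -0.34 for vps26b and -0.34 to 0.05 for vps26a. For vps45, which guides endosomal SNAREs, the probe sets opposed each other, higher by 0.54 on the brighter, marked S (adjusted p = 0.00971), and lower at -0.88 on the other, marked A (adjusted p = 0.00158). The gene vps9d1, named for its VPS9 domain and with 4 dim probe sets, was called lower at -0.30 on the brightest (adjusted p = 0.0302) and on none of the others. That call was also lost with the median over the probe sets (0.564), after centring on ribosomal protein genes (0.181) and without retina pool 1 (0.0899), or pool 2 (0.0941) or 3 (0.0974) with RPE.

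Exocyst genes, whose products tether secretory vesicles at the plasma membrane, had 1 of 6 higher and 1 lower. That was 16.7% in each direction, against 19.4% higher and 17.0% lower over all genes. The gene exoc7, whose product binds the plasma membrane lipids, read 162.4, 147.0 and 195.7 in retina and 278.4, 278.7 and 226.8 with RPE, a 1.56-fold rise (log2 change 0.64 ± 0.126, adjusted p = 0.00458). The gene exoc6b read 188.0, 173.3 and 144.9 in retina and 88.35, 119.9 and 96.95 with RPE, a 1.66-fold fall (log2 change -0.73 ± 0.134, adjusted p = 0.00312), while its paralog exoc6 was dim and lay at 0.03. The others, exoc1 (-0.16), exoc3 (-0.14) and exoc3l2b (0.16), were not called.

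Repeat probe sets show how much a single one can carry. Of the 141 genes, 23 had more than 1. All probe sets were called in the same direction for 2 genes (ap3b1a and cltca) and none was called for 7. In 12 genes some were called and others not, and in 2, rab5aa and vps45, calls were opposed. The other 118 genes rest on 1 probe set each. The same counts were not made over all genes with several probe sets. Whether such disagreement is usual on this array is therefore not known here.

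**Figure D5:**
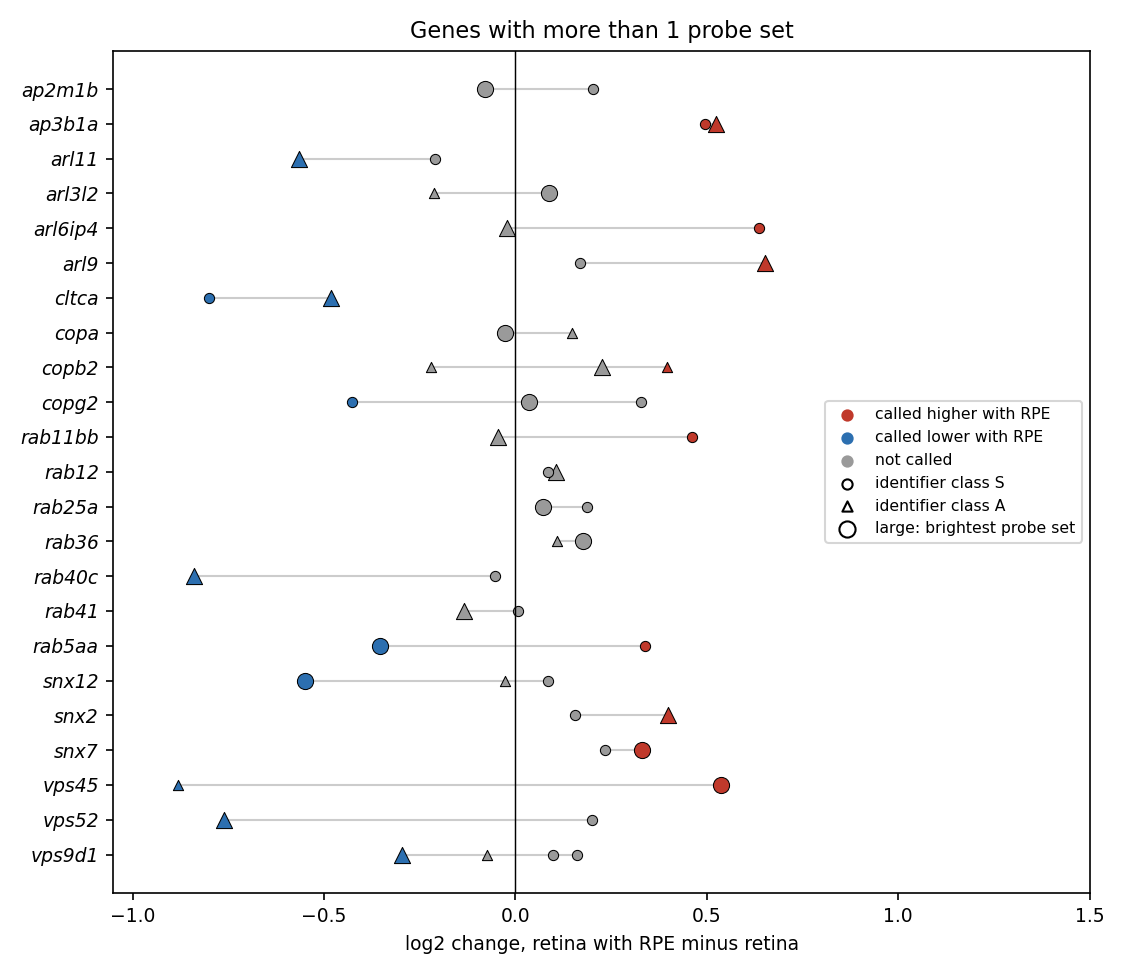
Log2 change (x axis, retina with RPE minus retina) of every probe set of the 23 trafficking genes that have more than 1, joined by a line per gene. Circles are marked S and triangles A in the identifier, large symbols are the brightest probe set and colours give the call. The widest gap is that of vps45, from -0.88 to 0.54.

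Trafficking genes outside the symbol rule, in lists by function, also had calls in both directions. Beside them stand the shares over all genes, 19.4% higher and 17.0% lower, 36.4% in all. SNAREs and their partners, which fuse vesicles with targets, had 1 of 28 higher and 7 lower (28.6% called). Their list shares snap25a, called lower, and snap25b, not called, with the inner retinal neuron markers. ESCRT and endosomal proteins had 1 of 22 higher and 7 lower (36.4%). Cargo receptors had 1 of 17 higher and 6 lower (41.2%), Rab and Arf regulators 4 of 27 and 8 (44.4%), Golgi tethers and matrix proteins 3 of 22 and 5 (36.4%), and other coats and dynamins 6 of 26 and 6 (46.2%). Medians of these lists lay between -0.13 and 0.00. For BLOC, HPS and melanosome motor proteins, 2 of 7 rose and 1 fell (42.9%), with a median of 0.14.

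In that last list hps4, a subunit of BLOC-3, which activates the melanosome Rabs Rab32 and Rab38 in mammals, read 50.74, 48.58 and 57.18 in retina and 103.3, 119.6 and 110.8 with RPE. Its level rose 2.13-fold (log2 change 1.09 ± 0.098, adjusted p = 0.000119), more than that of any of the 141 genes. The BLOC-1 gene bloc1s3 rose by 0.29 (adjusted p = 0.031) and snapin, shared by BLOC-1 and a lysosome positioning complex, fell by 0.72 on the log2 scale (0.00263). Both were dim, with means going from 21.04 to 25.69 for bloc1s3 and from 71.2 to 43.63 for snapin. The bloc1s3 call was lost after centring on ribosomal protein genes (0.0679), cyclic loess (0.191), quantile normalization (0.189) and a pseudocount of 16 (0.0504), and without retina pool 2 (0.0808) or 3 (0.065), or pool 1 (0.0551), 2 (0.107) or 3 (0.0701) with RPE.

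Among regulators, arfip1, which encodes the Arf-binding protein arfaptin, rose 2.58-fold, from 60.74 ± 9.547 to 156.2 ± 17.75 (SD, n = 3; adjusted p = 0.000151), and the Rab GAP family gene tbc1d14 rose by 0.55 (0.00306). The Arf exchange factor gene cyth1b fell 2.11-fold (0.000933), and rabif, whose product stabilises Rab proteins, by 0.82 on the log2 scale (0.00231). Chosen after their values were seen, rabggtb, a subunit of the enzyme that attaches lipid tails to Rabs, fell 1.54-fold (0.00133), and chm, the Rab escort gene of the human retinal disease choroideremia, was barely called, at -0.25 (0.0493). The chm call was lost without retina pool 1 (0.113) or 2 (0.102), or pool 1 (0.0581), 2 (0.137) or 3 (0.137) with RPE, and in 9 of the other alternatives, the 2 stricter thresholds among them.

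At the Golgi, the called TRAPP tether genes moved apart, with trappc13 (0.64, adjusted p = 0.000966) and trappc3 (0.36, 0.0132) higher and trappc4 (-0.75, 0.0021) lower. The TRAPP genes trappc2 (0.14), trappc5 (0.11), trappc8 (0.12) and trappc11 (-0.12) were not called. The call of trappc3 was lost without pool 1 (0.0535) with RPE. The tether gene cog7 fell by 0.71 on the log2 scale (0.00664) and its dim second probe set was not called. Of cargo receptors, tmed4 fell 1.69-fold (0.000319), lman2 was lower at -0.71 (0.0219), and its relative lman2la rose by 0.42 (0.00428). The lman2 call was lost with a pseudocount of 16 (0.0562) and without retina pool 1 (0.0651), or pool 3 (0.08) with RPE.

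The fusion ATPase gene nsfa was lower at -0.98 (adjusted p = 0.00145) on its bright probe set, marked A, and at 0.25 not called on the other. The SNARE gene vamp4 fell 1.84-fold (0.000212), while scfd2, of the Sec1 family, rose by 0.51 (0.00477). Of the endosomal genes, washc5, of the actin-nucleating WASH complex, rose by 0.47 (0.0118). The ESCRT partner gene pdcd6ip was lower on its brighter pair of probe sets, at -0.74 (0.00157) and -0.71, but higher by 0.37 on a dim one (0.0139). For chmp2bb, of ESCRT-III, the brightest probe set was lower at -0.69 (0.00171) and the others lay at 0.22, not called, and 0.53, called. Among endophilin genes, sh3gl1a was higher by 0.62 (0.00208) and sh3glb2b lower at -0.83 (0.000404). The clathrin partner gene hip1 rose by 0.39 (0.00894), a call lost after cyclic loess (0.0547) and quantile normalization (0.0638), and the scaffold gene itsn2b fell by 0.55 on the log2 scale (0.00439). Both sh3gl1a and hip1 were dim, with means in retina of 33.4 and 27.3.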

How the data were processed

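The 6 arrays hold 3 pools of retina and 3 of retina with RPE. The authors deposited linear intensities, 1 per probe set and array, per the file headers and values. RMA, affy and R 2.2.0 appear in the submitters' processing notes. The set of arrays normalized together is not stated there. Of 15617 probe sets, 115 controls were left out. Of the 15502 tested, 10795 carried 1 gene name in the platform annotation, which can be old, 135 carried several and 4572 none. All 141 member symbols matched a current identifier. Without a detection call, changes of dim probe sets can be understated.

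Intensities were log2 transformed and compared by lmFit and eBayes of limma 3.58.1 under R 4.3.3 (2-sided), and p-values were adjusted by Benjamini-Hochberg over all 15502 probe sets. A bare p in brackets after a change is that adjusted p. Errors of log2 changes are SE and those of intensities SD over 3 pools. Precision is limited by the number of arrays. The p of an exact permutation test of 3 against 3 cannot go under 0.1 either. In data simulated with the means and spread of these 15502 probe sets, 100 were changed by a log2 of 1 and 100 by 0.5. The fit recovered 93% and 40% of these, with 4 false calls. In the real arrays 34.5% of probe sets were called, a far larger part than was changed in the simulation. Its rates therefore need not hold for this comparison.

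The members, roles and lists were chosen with earlier results of these data known, so their counts are descriptions. By the naming rule, up to 3 called genes per role and direction whose groups stand apart, a fixed set of which 18 of 29 genes were measured, genes with opposed probe sets, and up to 2 called genes per direction of each further list were named. For a full account the 12 other called members were added after their values were seen, as were the groupings into complexes. The alternatives were cyclic loess, quantile normalization, centring on ribosomal protein genes, a block by replicate number, a filter at a mean log2 of 6, eBayes with trend and robust, array weights, a pseudocount of 16, the brightest probe set marked S, the median over a gene's probe sets, stricter thresholds, and leaving out each array. The study's yields, used by it to deduct the retinal part, are not used here. Sequences of the members are not used here. Figures were drawn with matplotlib 3.10.9.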

Additional observations from a re-analysis of the deposited data

How the results depend on the processing

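No called trafficking gene was called in the opposite direction under any alternative, when each kept its own probe set. Of the 45 called, 23 (9 higher, 14 lower) kept their call in every alternative that could be run for them other than the stricter thresholds. Of these 23, only ap3b1a has more than 1 probe set. For the rest, alternatives that change the probe set used the same values or could not be run, and so tested nothing. The counts of trafficking genes higher and lower were 15 and 20 after centring on ribosomal protein genes, 19 and 20 after cyclic loess, 20 and 20 after quantile normalization, and 13 and 25 of 115 genes with the filter on dim probe sets. As shares these are 10.6% and 14.2%, 13.5% and 14.2%, 14.2% and 14.2%, and 11.3% and 21.7%. Over all genes the same settings gave 17.3% and 10.9%, 15.9% and 14.8%, 16.5% and 14.4%, and 14.4% and 23.2%. The block by replicate number gave 21 and 27 (14.9% and 19.1%, against 20.7% and 18.5% of all genes). Same-numbered pools correlated in their deviations at r = 0.175, 0.079 and 0.13, and pools of unlike number at 0.029 or less. The labels do not say that same-numbered pools share a batch. Codes in the titles of some pools with RPE also bear a number unlike the replicate number. The replicate number was therefore used only as an alternative, and a shared batch was not tested. With probe sets marked S alone, 26 of 86 genes were called, 14 of them lower. An adjusted p under 0.01 left 11 higher and 19 lower (7.8% and 13.5%, against 9.35% and 9.45% of all genes). At least 1.5-fold left 18 called, 4 higher and 14 lower (2.84% and 9.93%, against 3.89% and 6.12% of all genes). Leaving out 1 array at a time gave 14 to 19 higher, 20 to 30 lower and medians of -0.06 to 0.01. The shares were 9.93% to 13.5% higher and 14.2% to 21.3% lower, against 12.4% to 18.1% and 11.5% to 16.9% of all genes. On probe sets marked S, vps52 (0.20), vps9d1 (0.10), rab11bb (0.46), nsfa (0.25) and chmp2bb (0.22) turned sign, as did vps45 (-0.17) and chmp2bb (0.22) with the median over probe sets. Over all probe sets, 2938 were higher and 2417 lower. Centring left 1547 lower, the filter 1179 higher, probe sets marked S 1512 higher and 767 lower, the threshold of 0.01 1338 higher and 1328 lower, and at least 1.5-fold 532 higher and 884 lower. Leaving out 1 array gave 1805 to 2725 higher. Some alternatives also drop probe sets or arrays. The causes of the differences were not tested.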
